A study of Mus musculus with 4 samples.

Results

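Urogenital sinuses (UGS) of *Tbx18*GFP/GFP and littermate wild type male embryos were compared at E16.5, from 1 RNA-Seq library a genotype, for which RNA of 3 whole UGS was pooled. Both genotypes were on a B6C3-F1 hybrid background, and the mutant allele is a null in which a GFP gene sits in the *Tbx18* locus in every cell of the embryo. The comparison held the 14761 genes, of 25819 in the deposited table, that reached 1 FPKM in one or both libraries. FPKM are read counts scaled to transcript length and to the depth of the library, and every difference below is a log2 ratio of mutant over wild type FPKM, in which 1.00 is a doubling. With 1 pooled library a side there was no replicate spread to set a difference against, so no test was made and all values are descriptions of these libraries. In pooled whole tissue, fewer cells of a type and less RNA per cell cannot be told apart.

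The UGS is the embryonic tube below the bladder from which the male prostate and the nearby urethra form. Its mesenchyme makes smooth muscle under the influence of androgens and directs the budding of the epithelium, and skeletal muscle of the urethral sphincter is laid down around its outer wall. *Tbx18* encodes a T-box transcription factor of mesenchyme, best known for its part in the smooth muscle coat of the ureter. Smooth muscle differentiation rests on serum response factor and its coactivator myocardin, and skeletal muscle differentiation on the MyoD family and MEF2 factors.

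*Tbx18* itself, on chromosome 9 from 87597635 to 87626095, was listed at 3.47 FPKM in the wild type and at 2.50 FPKM in the mutant library, or about 990 and 623 reads. The values do not separate transcripts of the targeted locus from those of an intact one. Depth was about 64000000 reads in the wild type and 55700000 in the mutant library, estimated from the FPKM that single reads give. Most genes were close to the same level in both, with a median log2 ratio of 0.01 over the 14309 genes that reached 1 FPKM in both, and 95.8% of the genes lay within 1.5-fold. At 2-fold, 71 genes (0.481%) were higher and 173 (1.17%) lower in the mutant. At 1.5-fold, 212 genes (1.44%) were higher and 401 (2.72%) lower. The width of the ratios depended on the level of a gene. Between 1 and 2 FPKM in the higher library, 14.4% of 1456 genes passed 1.5-fold, against 1.22% of 2547 genes between 20 and 50 FPKM, and above 200 FPKM the share was 5.90% of 271 genes.

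**Figure D1:**
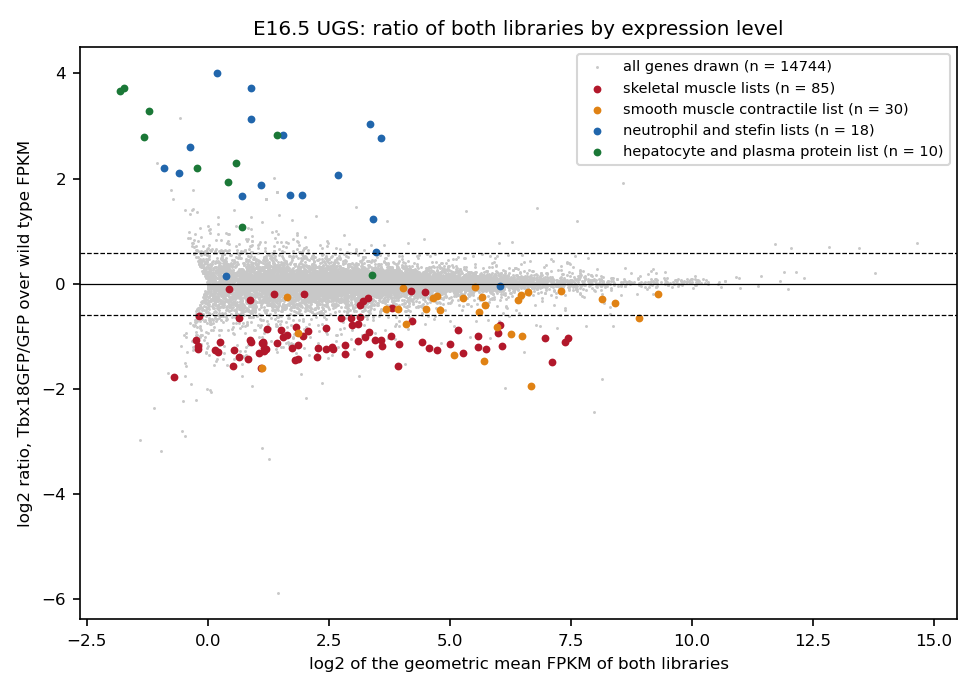
Each point is 1 gene of the E16.5 comparison that was above 0 in both libraries (14744 genes), with the log2 of its geometric mean FPKM on the x axis and its log2 ratio, *Tbx18*GFP/GFP over wild type, on the y axis. Dashed lines mark 1.5-fold. The 85 skeletal muscle genes (red) lie below 0 at every level, and the neutrophil, stefin and plasma protein genes (blue and green) form most of the points above 2.

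Of the 173 genes that were 2-fold lower, 54 (31.2%) were on the skeletal muscle lists, 5 on smooth muscle lists, 2 on the erythroid list and 14 on other lists, 16 were short noncoding RNAs, 22 predicted genes and cDNA clones, and 60 (34.7%) were other named genes on no list. Among the 71 genes that were 2-fold higher, 15 were neutrophil or stefin genes (21.1%), 9 were hepatocyte or lipoprotein genes, 9 short noncoding RNAs and 22 predicted genes or cDNA clones. None of the 2-fold higher genes was on a muscle list.

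Skeletal muscle genes were lower in the mutant library along the whole course of muscle formation, from the factors that specify myoblasts to the enzymes of mature fibres. Of 105 genes on 7 lists, 103 were in the table and 85 passed the FPKM minimum. These 85 were lower without exception, 75 of them past 1.5-fold (88.2%, against 2.72% of all genes) and 54 past 2-fold (63.5%, against 1.17%), with a median log2 ratio of -1.11. Of the 85, 74 reached 1 FPKM in both libraries. The remaining 11 reached it in the wild type library alone and so had to be lower, which in part fixes these shares. The 18 listed genes below the minimum in both libraries were lower in 14 cases and higher in 4. Summed over the lists, 2214 FPKM in wild type stood against 1063 FPKM in the mutant.

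The myogenic regulators ran from *Lbx1* (-1.77) and *Mstn* (-1.59) to *Eya1* (-0.14). *Lbx1*, a homeobox gene of migrating muscle precursors, was at 1.13 FPKM in wild type against 0.331 FPKM in the mutant, and this order of the libraries is kept throughout. *Myod1*, the determination factor, was at 11.4 and 4.50 FPKM, and *Myf5*, which acts beside it, at 2.67 and 1.27 FPKM. *Myog*, which drives fusion into myotubes, was at 36.4 and 15.7 FPKM, and *Tmem8c*, the membrane protein that fuses them, at 12.6 and 5.92 FPKM. *Mstn*, a secreted inhibitor of muscle growth that muscle itself makes, was at 3.73 and 1.24 FPKM. All of these were between 2.1- and 3.4-fold lower in the mutant library. *Pax7*, the marker of muscle stem cells, was below the minimum at 0.916 and 0.384 FPKM, with a log2 ratio of -1.25 that rests on about 331 and 121 reads. The list also holds factors that many cell types other than muscle use, and those had the smallest ratios. Among these, *Mef2c*, at 16.3 and 11.9 FPKM, had a log2 ratio of -0.45, *Six4* one of -0.20 and *Eya1*, at 19.4 and 17.6 FPKM, one of -0.14. The list median was -1.08 over 12 genes, 8 of them past 1.5-fold.

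All sarcomere genes that passed were lower. The 11 thick filament genes that passed had log2 ratios between -1.26 and -0.91 (median -1.11), a narrower range than that of the 13 thin filament genes, from -1.495 to -0.10, or of the 17 genes of the Z disc, titin and costamere, from -1.57 to -0.19. The embryonic and perinatal myosins *Myh3* and *Myh8* were at 102 and 41.1 FPKM in wild type against 45.1 and 17.1 FPKM in the mutant. The fast light chain *Mylpf*, the highest of the list, was at 246 and 114 FPKM. Adult fast myosins were below the minimum in both libraries, with *Myh4* at 0.624 and 0.220 FPKM and *Myh1* at 0.913 and 0.447 FPKM. *Myl2*, the slow and ventricular light chain, stood the other way, at 0.224 and 0.900 FPKM, as did *Mybpc2* at 0.229 and 0.247 FPKM, both below the minimum. Among 13 thin filament genes, of which 12 were past 1.5-fold lower, skeletal actin *Acta1* was at 231 and 81.8 FPKM and cardiac actin *Actc1*, which embryonic skeletal muscle also makes, at 250 and 122 FPKM. *Tnnt2*, the troponin T of heart and embryonic muscle, was at 61.0 and 24.6 FPKM, and the giant ruler protein nebulin (*Neb*) at 5.78 and 2.11 FPKM. *Tmod4* was the exception, at 1.40 and 1.31 FPKM. The 17 genes of the Z disc, titin and costamere had a median of -1.12, and 4 of them reached 1 FPKM in the wild type library alone. Among the 17, *Ttn* was at 3.30 and 1.32 FPKM, *Actn2* at 31.5 and 14.6 FPKM and the titin cap *Tcap* at 2.47 and 0.832 FPKM. *Trim63*, a ubiquitin ligase of muscle breakdown, was nearly level at 2.74 and 2.40 FPKM.

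The machinery that couples nerve to contraction was lower too. The 14 excitation-contraction coupling genes lay between -1.34 and -0.27, 13 of them past 1.5-fold lower (92.9%, against 2.72% of all genes). The calcium pump *Atp2a1* was at 16.1 and 6.37 FPKM, the release channel *Ryr1* at 3.27 and 1.49 FPKM and the voltage sensor *Cacna1s* at 1.82 and 0.744 FPKM. Of the neuromuscular junction genes, 7 of 8 passed and 7 were past 1.5-fold lower, against 2.72% of all genes (median -1.11). Of these, 3 reached 1 FPKM in the wild type library alone and so had to be lower. The largest ratio was that of the fetal acetylcholine receptor subunit *Chrng*, at 5.93 and 2.21 FPKM. *Chrne*, the adult subunit that replaces it after birth, was under 0.1 FPKM in both libraries, at 0.0114 and 0.0782 FPKM. In muscle energy metabolism (11 genes, median -1.16), the enzymes particular to muscle, creatine kinase *Ckm* at 26.2 and 8.86 FPKM and *Pgam2* at 10.7 and 4.80 FPKM, had larger ratios than *Pfkm*, the glycolytic enzyme found in many tissues, at 23.6 and 21.1 FPKM. The list median was -0.70 when 1 FPKM was asked in both libraries.

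Muscle genes on no list, chosen after their values were seen, had ratios of the same size. The satellite cell cadherin *Cdh15* was at 7.44 and 3.10 FPKM, the histone methyltransferase *Smyd1* at 9.78 and 4.27 FPKM, caveolin 3 (*Cav3*) at 9.19 and 4.32 FPKM, the basic helix-loop-helix repressor *Msc* at 6.77 and 2.64 FPKM, and *Popdc2*, a membrane protein of striated muscle, at 6.84 and 2.08 FPKM. *Pitx3*, a homeobox gene expressed in differentiating muscle, was at 3.02 and 0.894 FPKM.

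Promoters were read from RefSeq (GRCm38.p6, 250 bases before to 50 after each start) for 57 of the 85 skeletal genes and 25 of the 30 smooth muscle contractile genes, and searched on both strands. The core E-box CAGCTG, a site that MyoD family factors can bind, was in 29 of 75 skeletal promoters (38.7%), 6 of 30 smooth muscle promoters and 16.3% of all 32851 promoters. The CArG box, the site of serum response factor, was in 6.67%, 13.3% and 1.63%, and the MEF2 site in 10.7%, 3.33% and 3.19% of the same groups. The CArG box was searched for as CC, 6 bases of A or T, and GG, and near matches were not counted. The T-box core GGTGTGA was in 4.00% of skeletal, 0 of 30 smooth muscle and 3.98% of all promoters, and the general E-box CANNTG, which includes CAGCTG, in 82.7% of skeletal, 24 of 30 smooth muscle and 72.3% of all promoters. These are matches of letters, not measured binding. *Actg2*, *Myh11*, *Tagln* and *Nexn* are among the smooth muscle genes with no entry. The promoters of *Acta2*, the vascular smooth muscle actin, and of the calponin *Cnn1*, both past 1.5-fold lower, were chosen after the values were seen. They show smooth muscle genes beside *Acta1*, whose promoter holds a CArG box of this exact form, and *Myog*, whose promoter holds a T-box core. The *Acta2* sequence holds near matches to the CArG box, 1 base off this form, that are not marked. Capitals mark CAGCTG in *Acta2* (bases 182 to 177 before the start) and *Acta1* (221 to 216 before), the CArG box in *Acta1* (73 to 64 before) and GGTGTGA in *Myog* (7 to 1 before), and *Cnn1* had no match to CAGCTG, the CArG box, the MEF2 site or GGTGTGA in this window.
Acta2, chr19:34255324-34255623, minus strand: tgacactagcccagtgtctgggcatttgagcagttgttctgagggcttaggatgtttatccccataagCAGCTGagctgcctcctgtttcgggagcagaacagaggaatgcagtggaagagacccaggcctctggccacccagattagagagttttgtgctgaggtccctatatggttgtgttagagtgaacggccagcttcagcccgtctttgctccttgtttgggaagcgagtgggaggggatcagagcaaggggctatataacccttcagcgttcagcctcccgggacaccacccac
Cnn1, chr9:22099003-22099302, plus strand: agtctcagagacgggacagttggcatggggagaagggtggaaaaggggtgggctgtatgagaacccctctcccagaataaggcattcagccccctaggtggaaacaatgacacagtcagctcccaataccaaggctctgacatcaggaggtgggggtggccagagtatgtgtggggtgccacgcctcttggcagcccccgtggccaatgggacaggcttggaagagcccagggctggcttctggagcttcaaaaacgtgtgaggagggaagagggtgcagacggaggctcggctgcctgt
Acta1, chr8:123894726-123895025, minus strand: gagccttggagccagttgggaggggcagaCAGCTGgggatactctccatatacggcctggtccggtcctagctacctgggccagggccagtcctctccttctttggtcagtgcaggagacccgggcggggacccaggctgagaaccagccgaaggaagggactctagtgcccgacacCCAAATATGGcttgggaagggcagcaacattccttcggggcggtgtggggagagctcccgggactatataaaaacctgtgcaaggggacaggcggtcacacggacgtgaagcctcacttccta
Myog, chr1:134289754-134290053, plus strand: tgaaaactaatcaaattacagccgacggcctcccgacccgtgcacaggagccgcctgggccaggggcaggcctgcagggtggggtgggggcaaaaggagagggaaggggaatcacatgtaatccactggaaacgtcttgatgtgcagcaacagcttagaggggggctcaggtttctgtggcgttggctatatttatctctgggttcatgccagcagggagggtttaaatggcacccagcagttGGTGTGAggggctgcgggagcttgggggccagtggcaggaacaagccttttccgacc

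In smooth muscle, the contractile genes were lower and most of the factors that control them were near level. All 30 contractile genes on the list passed and all 30 were lower in the mutant library, with a median of -0.44, 10 of them past 1.5-fold (33.3%, against 2.72% of all genes) and 4 past 2-fold (13.3%, against 1.17%). They ran from *Actg2*, the enteric smooth muscle actin, at 200 and 51.6 FPKM (-1.95) to *Actn1*, an actinin that most cells make, at 46.7 and 44.6 FPKM (-0.07). The genes nearest to *Actg2* were *Synm* (synemin, an intermediate filament protein), at 3.80 and 1.25 FPKM, the smooth muscle myosin *Myh11* at 86.4 and 31.3 FPKM and the calponin *Cnn1* at 53.8 and 21.1 FPKM. *Acta2* was at 597 and 381 FPKM (-0.65). Between *Cnn1* and *Acta2* lay tropomyosin *Tpm2* at 128 and 64.0 FPKM, the actin nucleator *Lmod1* at 5.05 and 2.63 FPKM and desmin (*Des*), which skeletal muscle shares, at 83.5 and 47.3 FPKM. Parts of the contractile apparatus that are not confined to smooth muscle had small ratios. The light chain *Myl6*, at 671 and 583 FPKM the highest of the list, had a log2 ratio of -0.20, filamin *Flna* at 163 and 149 FPKM of -0.13 and caldesmon *Cald1* at 95.5 and 82.6 FPKM of -0.21. Myosin light chain kinase (*Mylk*) lay between, at 61.2 and 46.2 FPKM (-0.41).

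Among 10 smooth muscle regulators the median was -0.08. *Srf* was at 17.7 and 16.4 FPKM, its coactivator *Myocd* at 7.94 and 6.51 FPKM (-0.29), and the related coactivators *Mkl1* at 10.5 and 10.1 FPKM and *Mkl2* at 9.12 and 9.38 FPKM. *Tshz3*, a factor of ureter smooth muscle, was at 8.75 and 8.47 FPKM. Past 1.5-fold stood *Foxf1a*, a forkhead factor of gut and bladder mesenchyme that responds to hedgehog signals, at 17.0 and 9.29 FPKM. Its relative *Foxf2*, on no list, was at 21.1 and 10.2 FPKM. *Gata6* was the highest of the list in the mutant relative to wild type, at 6.43 and 7.80 FPKM (0.28). Of 21 channels and receptors 17 passed, with a median of -0.24. *P2rx1*, the ATP-gated channel through which nerves contract bladder and vas deferens muscle, was at 3.66 and 0.959 FPKM (-1.93), and *Kcnmb1*, the smooth muscle subunit of the large potassium channel, at 1.06 and 0.691 FPKM. The serotonin receptor *Htr2b* stood the other way, at 0.656 and 1.15 FPKM (0.81, about 78 and 120 reads). The FPKM minimum fixed these directions. *P2rx1* and *Kcnmb1* reached 1 FPKM in the wild type library alone, and *Htr2b* in the mutant library alone. Of the 17 genes, 14 reached it in both.

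**Figure D2:**
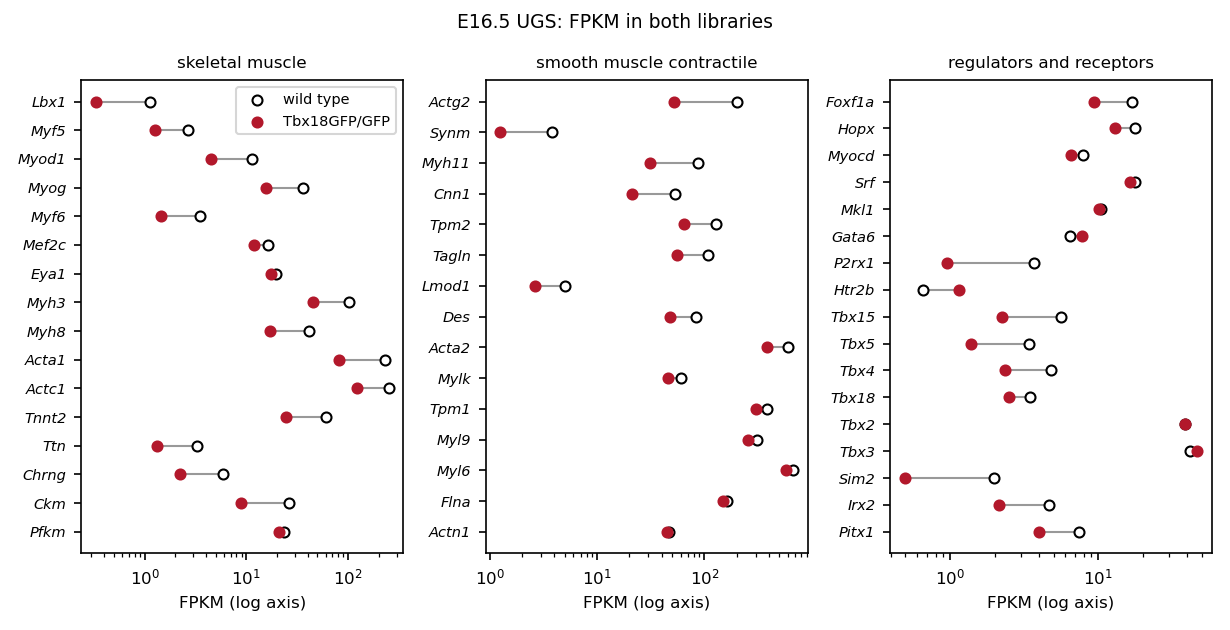
FPKM in the E16.5 wild type (open circles) and *Tbx18*GFP/GFP library (filled red circles) on log axes that differ between panels, for skeletal muscle genes, smooth muscle contractile genes, and regulators and receptors, 1 library a circle. The mutant circle lies to the left for each gene of the first and second panel, while *Srf*, *Mkl1*, *Tbx2* and *Tbx3* have nearly coincident circles and *Gata6* and *Htr2b* lie to the right.

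T-box genes related to *Tbx18* were not level. *Tbx15*, the closest relative of *Tbx18*, was at 5.57 and 2.24 FPKM (-1.32, from about 1195 and 418 reads), *Tbx5* at 3.39 and 1.39 FPKM (-1.29) and *Tbx4* at 4.83 and 2.36 FPKM. *Tbx5* and *Tbx4* are known for limb and body wall mesenchyme. The most highly expressed T-box genes, the repressors *Tbx2* at 38.4 and 38.2 FPKM and *Tbx3* at 41.6 and 46.7 FPKM, differed little. Of 9 T-box genes that passed, 3 were past 2-fold lower, against 1.17% of all genes, with a median of -0.41 that became 0.01 when 5 FPKM was asked. Among 17 patterning factors 4 were past 1.5-fold lower (23.5%, against 2.72% of all genes). They included *Sim2* at 1.99 and 0.493 FPKM (-2.01), *Irx2* at 4.64 and 2.15 FPKM and the hindlimb factor *Pitx1* at 7.44 and 3.96 FPKM. *Sim2* reached 1 FPKM in the wild type library alone and so had to be lower, which in part fixes this share. *Tcf21*, a factor of visceral mesenchyme, was at 136 and 164 FPKM, *Wt1* at 15.2 and 20.5 FPKM (0.43), *Osr1* at 36.5 and 29.4 FPKM and *Isl1* at 38.1 and 34.7 FPKM. *Lhx8* had a log2 ratio of -1.38, and was chosen after its value was seen.

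Hox genes, which give position along the body axis, differed by cluster. All 8 genes from *Hoxb2* to *Hoxb9* that passed were higher in the mutant library, by 0.25 to 0.74 with a median of 0.41, against a median of 0.01 over all genes. The largest were *Hoxb9* at a log2 ratio of 0.74, from about 1446 and 2103 reads, and *Hoxb8* at 7.56 and 11.7 FPKM. *Hoxb13*, at the far end of the same cluster and a gene of prostate identity, was at 2.90 and 2.61 FPKM. All 8 Hoxd genes were higher too, with a median of 0.28, but the posterior members *Hoxd12* at 11.8 and 12.2 FPKM and *Hoxd13* at 44.3 and 44.8 FPKM were nearly level while *Hoxd8* had a log2 ratio of 0.55. In the Hoxa cluster 4 genes were higher and 5 lower (median -0.03), led by *Hoxa11* at 13.4 and 19.2 FPKM. In the Hoxc cluster 5 of 6 were lower (median -0.13), led by *Hoxc10* at 10.9 and 7.59 FPKM. By paralogue group, the 22 genes of groups 2 to 9 had a median of 0.28 and the 10 genes of groups 10 to 13 a median of 0.04. *Hoxb8* and *Hoxb9* were the Hox genes past 1.5-fold, 2 of 32 (6.25%, against 1.44% of all genes that were higher by as much). With the column sums made equal, *Hoxb8* (0.53) lay within 1.5-fold. At E18.5 the 8 genes from *Hoxb2* to *Hoxb9* had a median of -0.21. These Hox summaries were drawn up after the values were seen.

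Epithelial lists had medians below 0, though nearer to it than the skeletal muscle lists. Of 25 genes of prostate and sinus epithelium 23 passed, 15 of them lower, with a median of -0.20. None was past 1.5-fold lower, against 2.72% of all genes, and 1 was past it higher (4.35%, against 1.44%). Of the 23, 1 reached 1 FPKM in the mutant library alone and so had to be higher. The basal keratins *Krt15* at 384 and 258 FPKM and *Krt5* at 104 and 70.7 FPKM and the basal factor *Trp63* at 10.7 and 7.93 FPKM were lower, while the simple keratins *Krt8* at 90.2 and 90.4 FPKM and *Krt18* at 79.0 and 80.6 FPKM and the adhesion molecule *Epcam* at 59.3 and 64.7 FPKM were not. *Shh*, the signal of the budding epithelium, had a log2 ratio of -0.29.

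Markers of bladder and of cornifying epithelium had medians further below 0. Of 11 urothelial genes 10 were lower and 3 past 1.5-fold, against 2.72% of all genes, with a median of -0.50. The uroplakins, which plate the surface of the bladder, were at 83.6 and 56.7 FPKM for *Upk1a*, at 98.6 and 69.6 FPKM for *Upk1b* and at 45.4 and 32.1 FPKM for *Upk2*, and the umbrella cell keratin *Krt20* at 1.63 and 0.638 FPKM (from about 179 and 61 reads). *Krt20*, 1 of the 3 urothelial genes past 1.5-fold, reached 1 FPKM in the wild type library alone and so had to be lower. The 17 cornified epithelium genes that passed had a median of -0.50, 16 of them lower, but -0.23 over those with 5 FPKM. Of the 17, 3 reached 1 FPKM in the wild type library alone and so had to be lower, *Cnfn* and *Sprr3* among them. Of the 9 listed genes below the minimum, 5 were higher and 4 lower. The cornified envelope proteins *Cnfn* at 1.54 and 0.170 FPKM and *Sprr3* had the largest ratios, with about 48 against 5 and 116 against 22 reads, and a 95% counting interval of -4.75 to -1.74 for *Cnfn*. The suprabasal keratin *Krt4* was at 191 and 126 FPKM and *Sprr1a* at 199 and 141 FPKM. How much bladder or genital epithelium each pool held was not tested.

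**Figure D3:**
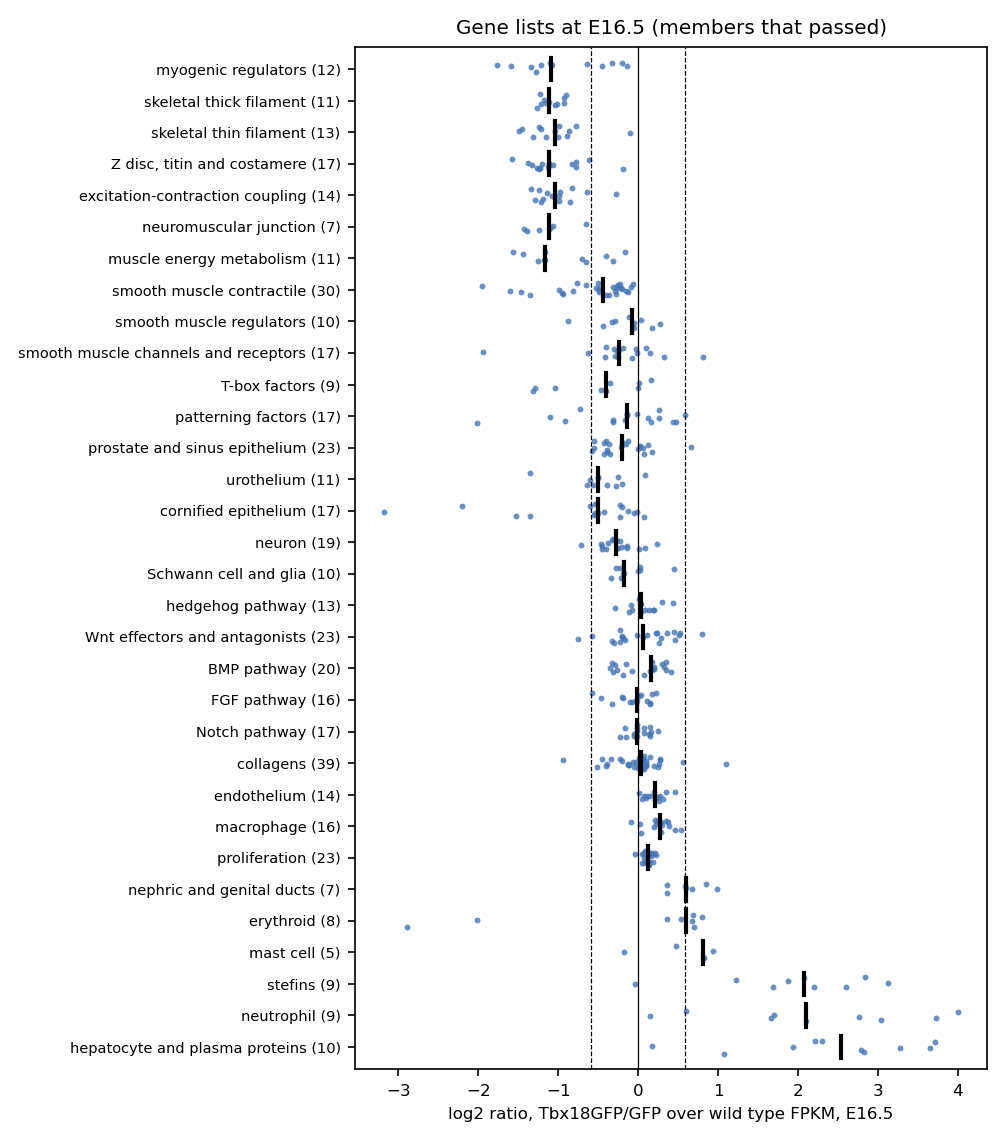
Log2 ratios, *Tbx18*GFP/GFP over wild type at E16.5, of the members of 32 gene lists that passed the FPKM minimum (their number in brackets). Each dot is 1 gene above 0 in both libraries, the vertical scatter within a row has no meaning, black bars are list medians, and dashed lines mark 1.5-fold. The 7 skeletal muscle lists lie around -1, the signalling lists around 0, and the neutrophil, stefin and plasma protein lists above 2.

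Signalling pathways of UGS budding were level as groups. Over 13 hedgehog genes the median was 0.03, and the targets *Ptch1* (-0.07) and *Gli1* (0.20) lay to either side of it. The 16 FGF and 17 Notch pathway genes had medians of -0.02 and -0.01. No hedgehog, FGF or Notch gene was past 1.5-fold, against 4.15% of all genes in both directions together. At that share, lists of this size can hold none. *Fgf10*, the mesenchymal signal for bud growth, was at 6.58 and 7.70 FPKM and its receptor *Fgfr2* at 37.2 and 42.0 FPKM. The BMP pathway had the highest median of the signalling lists, 0.16 over 20 genes, and its target genes *Id1* at 89.1 and 99.0 FPKM, *Id2* at 112 and 142 FPKM and *Id3* at 149 and 198 FPKM were higher, within 1.5-fold, while *Bmp4* was at 36.6 and 38.5 FPKM. Wnt effectors and antagonists (23 genes, median 0.07) had 1 gene past 1.5-fold each way. *Rspo1*, which amplifies Wnt signals, was at 2.04 and 3.55 FPKM, and the Wnt inhibitor *Frzb* at 2.14 and 1.27 FPKM. The target genes *Axin2* at 10.3 and 13.3 FPKM, *Notum* at 3.38 and 4.81 FPKM and *Rnf43* at 4.73 and 6.47 FPKM were between 0.37 and 0.51 higher. Wnt ligands (12 genes, median 0.07) included *Wnt16* at 2.82 and 1.63 FPKM and *Wnt9b* at 2.05 and 3.08 FPKM, the latter (0.59) within 1.5-fold under each of the 3 scalings, and the 10 frizzled receptors *Fzd9* at 1.36 and 0.672 FPKM. *Fzd9* reached 1 FPKM in the wild type library alone and so had to be lower.

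Hormone and retinoid genes followed the same rule with few exceptions. In steroid response (9 genes, median 0.06), the enzyme that activates testosterone, *Srd5a2*, had a log2 ratio of 0.07, while the estrogen receptor *Esr1* was at 2.18 and 3.76 FPKM (0.79, from about 855 and 1285 reads). In the retinoic acid pathway (17 genes, median -0.02), the degrading enzyme *Cyp26a1* was at 2.65 and 1.09 FPKM and *Rxrg* at 3.64 and 2.24 FPKM, and the synthetic enzyme *Aldh1a2* at 80.5 and 67.7 FPKM. The TGF-beta and myofibroblast list (19 genes) had a median of -0.01, with *Vim* at 397 and 387 FPKM, *Tnc* at 37.4 and 33.4 FPKM and *Fn1* at 114 and 107 FPKM. Of the 19, 9 were higher and 10 lower. Past 1.5-fold stood 1 gene, higher at 0.69 (5.26%, against 1.44% of all genes), and none lower. IGF and imprinted growth genes (19 genes) had a median of -0.08 and no gene past 1.5-fold, against 4.15% of all genes.

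Matrix lists had medians near 0. Over 39 collagens the median was 0.04, with 1 gene past 1.5-fold each way. Over 20 elastic fibre genes it was 0.11 and over 10 matrix metalloproteases 0.08. Neither of the latter lists had a gene past 1.5-fold, against 4.15% of all genes. Elastin (*Eln*) was at 159 and 230 FPKM (0.53). Of 14 small proteoglycans the one past 1.5-fold was *Dpt*, dermatopontin, with a log2 ratio of -1.04, and lumican (*Lum*) was at 120 and 163 FPKM. The 11 cartilage genes had a median of 0.09 with 2 past 1.5-fold higher (18.2%, against 1.44% of all genes). Of the 11, 9 reached 1 FPKM in both libraries. In the mutant library alone 1 reached it and so had to be higher, and in the wild type library alone 1 did. The 3 bone genes that passed, of 11 listed, had a median of 0.26 with 1 past 1.5-fold higher.

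Neutrophil and plasma protein genes were higher in the mutant library, at low levels. All 21 neutrophil genes listed were higher there, 9 that passed and 12 below the minimum. Of the 9, 4 reached 1 FPKM in the mutant library alone and so had to be higher in it, and 8 were past 1.5-fold, against 1.44% of all genes, a share that the minimum in part fixes. Their summed level was 24.4 against 102 FPKM, and no listed marker was at 0 in both. Granule proteins of maturing neutrophils led: *Camp* was at 0.284 and 4.57 FPKM (4.01, from about 10 and 138 reads), *Ngp* at 0.512 and 6.77 FPKM, *Ltf* at 0.915 and 2.91 FPKM and *Lcn2* at 1.81 and 5.87 FPKM. Proteases of earlier granulocyte stages were below the minimum, with *Elane* at 0.0443 and 0.534 FPKM and *Mpo* at 0.0804 and 0.469 FPKM. *Lyz2*, which macrophages also make, was at 9.02 and 13.7 FPKM. The stefins, cysteine protease inhibitors that mouse neutrophils express, had a median of 2.08 over 9 genes, 3 of which passed in the mutant library alone, and the exception was *Cstb*, which most cells make, at 66.1 and 64.5 FPKM. Stefin genes of the cluster on chromosome 16 are near copies of each other, so their separate values are uncertain.

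Other leukocytes differed less. Of 16 macrophage genes 15 were higher, with a median of 0.27, for example *Csf1r* at 6.04 and 7.03 FPKM and *C1qa* at 11.7 and 14.9 FPKM. None of the 16 was past 1.5-fold, against 4.15% of all genes. Mast cell genes had a median of 0.81 over 5 genes, with the proteases *Tpsb2* at 5.10 and 9.73 FPKM and *Cma1* at 4.19 and 7.33 FPKM, while *Kit*, which other UGS cells also express, was at 9.63 and 8.54 FPKM. Of 12 lymphocyte genes 2 passed, and both and the 10 below the minimum were higher in the mutant. The B cell gene *Cd79a*, at 0.197 and 0.968 FPKM, was among them.

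Hepatocyte genes had a median of 2.54 over the 10 that passed of 22 listed, 7 of them in the mutant library alone, and the 12 below the minimum were higher as well. The list summed to 15.8 against 37.9 FPKM. Albumin (*Alb*) was at 1.01 and 7.13 FPKM, alpha-fetoprotein (*Afp*) at 0.685 and 2.63 FPKM, *Apoa1* at 0.669 and 3.31 FPKM, *Ahsg* at 0.397 and 1.84 FPKM, *Serpina1e* at 0.137 and 1.33 FPKM and *Apoh* at 0.0804 and 1.02 FPKM. For *Apoh* about 5 and 55 reads were counted, with a 95% counting interval of 2.35 to 5.34. Transferrin (*Trf*), which the UGS makes as well, was at 9.90 and 11.1 FPKM. *Fabp1*, the liver and gut fatty acid binding protein, chosen after its value was seen, had a log2 ratio of 3.15. The median of the list was 1.07 when 1 FPKM was asked in both libraries and 0.99 with a pseudocount of 1. The high density lipoprotein list (6 genes, median 0.35) and the complement list (13 genes, median 0.32) had smaller medians. Of the 13 complement genes, 10 were higher and 3 lower, and all reached 1 FPKM in both libraries. Past 2-fold higher were 3 of them, against 0.481% of all genes. Of the 6 lipoprotein genes, 2 were past 2-fold higher, and 2 reached 1 FPKM in the mutant library alone and so had to be higher. Of 12 serpins that passed, of 59 listed, 2 were past 1.5-fold higher (16.7%, against 1.44% of all genes). *Serpina1e*, 1 of the 2, reached 1 FPKM in the mutant library alone and so had to be higher. It is on the hepatocyte list as well.

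Erythroid genes had a median of 0.61 over 8 genes. The adult globins *Hba-a1*, *Hba-a2* and *Hbb-b1* together stood at 17860 FPKM in wild type against 28759 FPKM in the mutant, or 3.88% and 5.80% of all FPKM. With *LOC100503686*, a row that lies between *Hbb-b1* and *Hbb-y* on chromosome 7 and had a log2 ratio of 0.78, the shares were 8.14% and 12.6%. Also higher was the heme synthesis enzyme *Alas2*, at 59.2 and 103 FPKM. The embryonic globins went the other way, *Hbb-y* from about 53 to 6 reads at 1.97 and 0.266 FPKM, and *Hba-x* at 2.06 and 0.510 FPKM. *Hbb-y* and *Hba-x* reached 1 FPKM in the wild type library alone and so had to be lower in the mutant. With the sums of the columns made equal, the erythroid median was 0.50. These globins are near copies, so only their sum is given. The part that blood cell, liver or neutrophil RNA has in the other differences was not tested.

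**Figure D4:**
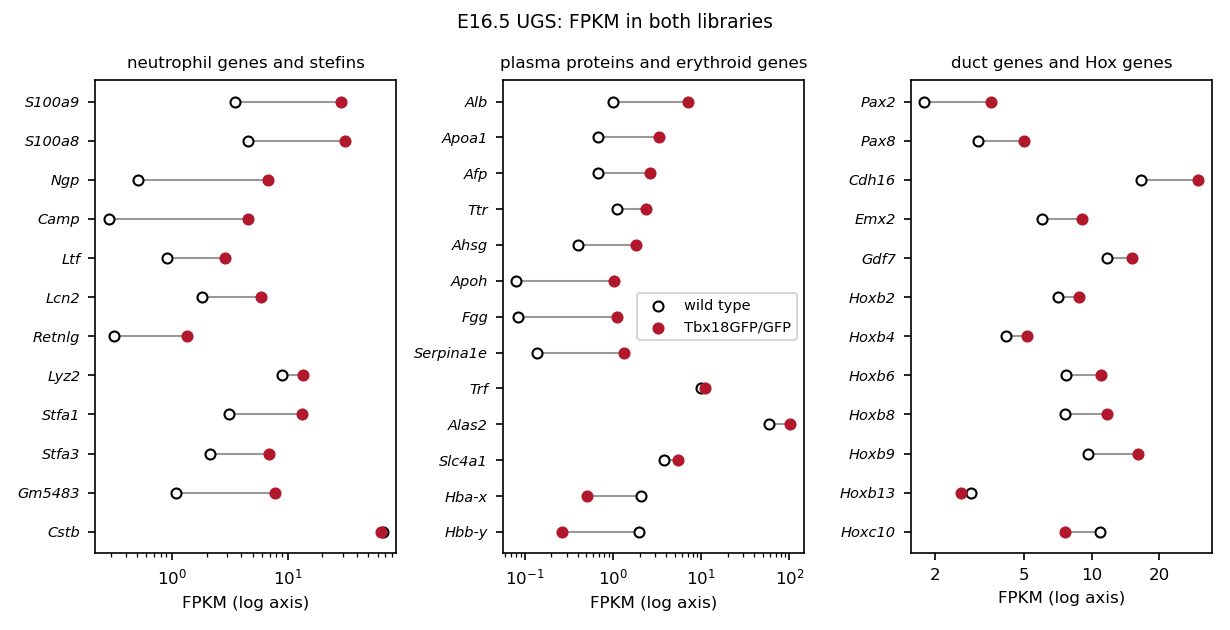
FPKM in the E16.5 wild type (open circles) and *Tbx18*GFP/GFP library (filled red circles) on log axes that differ between panels, 1 library a circle, for neutrophil genes and stefins, plasma protein and erythroid genes, and duct and Hox genes. The mutant circle lies to the right for most genes, and to the left for the embryonic globins *Hba-x* and *Hbb-y*, for *Hoxb13*, for *Hoxc10* and, by little, for *Cstb*.

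Genes of the nephric and genital ducts, the Wolffian and Müllerian ducts that join the sinus, were higher in the mutant library. All 7 that passed, of 13 listed, were higher and 5 past 1.5-fold (71.4%, against 1.44% of all genes), with a median of 0.60. With the column sums made equal the median was 0.49, and *Emx2* (0.49) and *Pax8* (0.57) lay within 1.5-fold. The duct specification factors *Pax2* at 1.79 and 3.55 FPKM and *Pax8* at 3.12 and 4.99 FPKM, the kidney cadherin *Cdh16* at 16.6 and 29.8 FPKM and *Emx2* at 5.99 and 9.06 FPKM were among them. The seminal vesicle signal *Gdf7* was at 11.7 and 15.1 FPKM. The seminal vesicle secretion genes *Svs4*, *Svs5* and *Svs6* were listed at 0 in both. *Crisp1*, an epididymal protein chosen after its value was seen, had a log2 ratio of 1.10. The 2 gonad genes that passed, of 10 listed, lay between -0.13 and 0.44. How much duct each pool held was not tested.

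Nerve, vessel and cell cycle genes shifted as groups by small amounts. Of 19 neuron genes 16 were lower, with a median of -0.27 and 1 gene past 1.5-fold, the neurofilament *Nefm* at 59.5 and 36.4 FPKM. The sympathetic enzymes *Th* at 21.7 and 25.6 FPKM and *Dbh* at 34.1 and 36.3 FPKM were not lower, while the cholinergic marker *Chat* was at 1.34 and 0.975 FPKM. *Chat* reached 1 FPKM in the wild type library alone and so had to be lower. The 10 genes of Schwann cells and glia had a median of -0.18, among them *Sox10* at 7.89 and 6.76 FPKM. All 14 endothelial genes were higher (median 0.21), from *Plvap* at 12.7 and 12.9 FPKM to *Vwf* at 3.51 and 4.84 FPKM, and so were 6 of 8 pericyte genes (median 0.10). Of 23 proliferation genes 22 were higher with a median of 0.13, for example *Mki67* at 40.8 and 44.2 FPKM and *Pcna* at 121 and 138 FPKM, and 33 of 39 histone genes with a median of 0.11. With the column sums made equal every ratio is 0.11 smaller, which takes the median of the proliferation list to 0.03 and that of the histone list to 0.01. Adipocyte genes (6 genes) had a median of -0.19, with *Fabp4* at 32.3 and 20.3 FPKM.

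Genes of general cell state were close to level. Medians were 0.03 over 77 cytosolic ribosomal proteins, -0.02 over 74 oxidative phosphorylation genes, -0.01 over 16 immediate early genes, 0.04 over 16 hypoxia and glycolysis genes and -0.02 over 12 stress response genes. *Rpl29* was an exception among the ribosomal proteins, at 144 and 58.7 FPKM (-1.29). Posterior Hox genes as listed (13 genes) had a median of 0.02.

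The 15 most negative ratios among genes reaching 10 FPKM in one library and 1 FPKM in the other belonged to 5 skeletal muscle genes (*Ckm*, *Acta1*, *Myod1*, *Atp2a1* and *Tnnt2*), 3 smooth muscle genes (*Actg2*, *Myh11* and *Cnn1*) and 4 short noncoding RNAs (*Rn5s*, *Mir433*, *Mir680-2* and *Rmrp*). The others were *Rpl29*, the urea cycle enzyme arginase *Arg1* (-1.75) and the cytokine *Il17b* at 11.8 and 4.66 FPKM (-1.34). The 15 most positive ratios included those of *S100a9*, *S100a8*, *Stfa1* and the stefin *BC100530*, of *Cdh16* and *Alas2*, of the short RNAs *Mir686*, *Mir715*, *Snora17*, *Snora16a* and *Snora65*, of the predicted genes *Gm5775*, at 8.57 and 19.7 FPKM, and *LOC100503686* (0.78), and of the splicing factor *Cwc22*. *Cwc22*, on chromosome 2 from 77733710 to 77784240, was at 25.1 and 65.2 FPKM (1.38). The table held 7 rows with Gm1369 symbols further along the same chromosome, with 3 distinct pairs of values among them, for example 1.31 and 4.01 FPKM for *Gm13698*. Whether rows with equal values share reads was not examined, and their separate levels are uncertain.

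Short noncoding RNAs were a source of large ratios in both directions. Of 52 such rows that passed, with a median length of 127 bases, 26 were past 1.5-fold lower and 11 higher (71.2% together), and 13 were listed at 0 in 1 library. The libraries were made from mRNA, and at such lengths 1 read is worth a large FPKM.

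Neighbours of *Tbx18* on chromosome 9 were mostly level. Within 1 Mb, 11 genes passed and none was past 1.5-fold, against 4.15% of all genes. Within 10 Mb, 81 genes passed with a median of 0.00, and the ones past 1.5-fold were *Plscr2* (0.79) and the short RNA *Rn7sk*, which was past 2-fold. Across chromosomes, the share of genes past 1.5-fold ran from 2.32% on chromosome 8 to 5.86% on chromosome 14.

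At E18.5 the same lists were laid beside these values as far as the libraries allow. The E18.5 wild type library was shallower, about 29000000 reads against 52400000 in the E18.5 mutant, and the median log2 ratio over all genes there was 0.29. The skeletal muscle lists together had a median of -0.12 at E18.5 over 78 genes, 42 of them lower, against -1.11 at E16.5. Smooth muscle contractile genes had one of 0.79 and erythroid genes one of 2.44. The hepatocyte list was at -2.12 over 5 genes, the neutrophil list at -0.59 over 5 and the duct list at -0.44 over 7, of which 3 were higher. These medians are over the genes that passed at each stage, which are not the same genes. Among T-box genes *Tbx15* was lower at both stages (-1.32 and -1.20), while *Tbx4* was at 0.46 at E18.5. With 1 library a genotype and stage, the difference between stages was not tested.

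**Figure D5:**
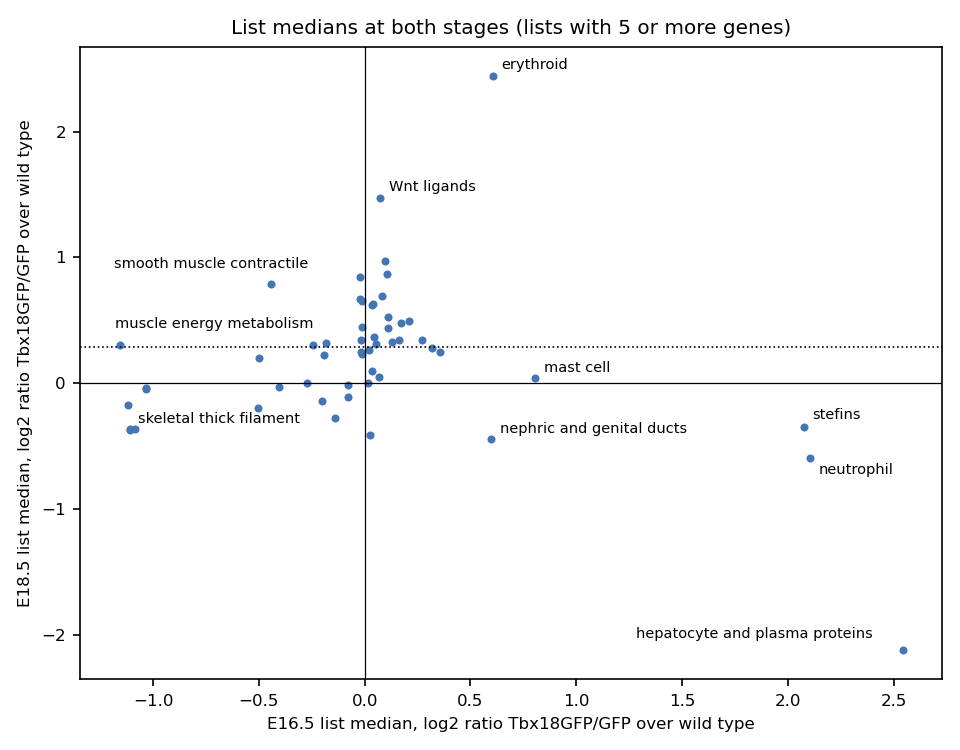
Each point is 1 of the 54 lists with at least 5 genes at both stages, with its median log2 ratio, *Tbx18*GFP/GFP over wild type, at E16.5 on the x axis and at E18.5 on the y axis, and the dotted line marks the E18.5 median over all genes (0.29). The hepatocyte, neutrophil, stefin and duct lists lie at the lower right, and the smooth muscle contractile list at the upper left.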

How the data were processed

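The series holds 4 RNA-Seq libraries of whole male UGS, 1 for each of both genotypes at E16.5 and at E18.5, each from a pool of 3 embryos. They were prepared with a stranded mRNA kit and read from 1 end. The authors mapped reads with Tophat at default options and deposited FPKM from Cufflinks, 1 column a library. The submitters' notes list CASAVA 1.8.2, Trimmomatic 0.30, TopHat2 2.1.0 and Cufflinks 2.2.1. The genome build is not given in the sources used here. The deposited positions are not those of GRCm38.p6, the build of the promoter coordinates, so both kinds of position cannot be compared. Gene positions follow the deposited table, with its starts moved to count from 1.

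Ratios of mutant over wild type FPKM were computed as deposited, without a pseudocount, over the genes reaching 1 FPKM in one or both E16.5 libraries. Genes listed at 0 in 1 library count as past each threshold and have no ratio, so they are left out of medians. Folds of 1.5 and 2 are those the study gives in its results. With 1 library a group, no test was run. The members of the comparison and the 57 gene lists were chosen with earlier results of these data known, and the MEF2 site was added after the promoter matches were seen. Named genes are the highest or most changed members of their lists, and the 15 largest ratios in each direction among genes reaching 10 FPKM in one library and 1 FPKM in the other, others being said to be chosen later. Some genes that meet this rule are not reported here. Depth was estimated from olfactory receptor genes whose FPKM equal 1 read (27 in wild type, 25 in mutant). Estimated reads and their exact 95% intervals (Clopper-Pearson, conditional on both libraries) cover counting error only. The counting steps were tested on simulated data. The scripts ran in Python 3.11.15 with scipy 1.17.1 for intervals, statsmodels 0.14.6 for the trend, pandas 2.3.3 and numpy 2.4.6 for tables and matplotlib 3.10.9 for plots. Alternatives were 3 scalings, 3 other FPKM minimums, pseudocounts of 0.1 and 1, repeated symbols left out, and a lowess trend (span 0.3) on transcript length and GC content subtracted, for the 94.0% of genes that have both.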

Additional observations from a re-analysis of the deposited data

Results flagged for a closer look

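Some values differed in direction between the stages, past 1.5-fold at E16.5 and, relative to the E18.5 median of 0.29 over all genes, past 1.5-fold the other way at E18.5. These differences were not tested, since each stage has 1 library a genotype. Median log2 ratios, mutant over wild type, were 2.54 at E16.5 and -2.12 at E18.5 for the hepatocyte list, 2.11 and -0.59 for the neutrophil list, 2.08 and -0.35 for the stefins and 0.60 and -0.44 for the duct list. These medians are over the genes that passed at each stage, 10 and 5 for the hepatocyte list, and several passed through the library where they were higher. Summed over the whole list at E18.5, the hepatocyte genes were at 24.3 FPKM in wild type against 24.5 in the mutant. The sums were 28.6 against 25.1 for the neutrophil list, 73.4 against 84.6 for the stefins and 42.0 against 47.3 for the ducts. Of the 7 duct genes 3 were higher. No fall of the size of the medians is seen in these sums, but sums are weighted to highly expressed members. At E18.5 the stefin *Cstb* was at 53.1 and 71.2 FPKM, *Trf* of the hepatocyte list at 10.4 and 17.0 FPKM and the duct gene *Cdh16* at 10.4 and 18.7 FPKM. The sums therefore cannot show how most members moved. With column sums made equal the E16.5 duct median, 0.493, is within 1.5-fold. Among single genes of the neutrophil and stefin lists, *S100a9* was at 3.04 and -0.59, *S100a8* at 2.77 and -0.85 and *Stfa1* at 2.08 and -0.52. Single muscle genes with opposite ratios were *Actg2* at -1.95 and 2.16, *Ckm* at -1.56 and 1.65, *Acta1* at -1.495 and 2.04 and *Cnn1* at -1.35 and 1.74, while 42 of 78 skeletal muscle genes were lower at E18.5. *Rpl29* was at -1.29 and 2.27 and the predicted gene *Gm5775* at 1.20 and -1.34. Short noncoding RNAs were *Rn5s* at -2.43 and 1.47, *Mir433* at -1.98 and 1.16 and *Mir680-2* at -1.80 and 1.15. The E18.5 wild type library, at about 29000000 reads, held less than the other 3 libraries, and its part in these differences was not tested.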

How the results depend on the processing

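The 3 scalings shifted every ratio by 0.11 (column sums), 0.01 (median) and 0.03 (75th percentile), and kept the 4 counts of genes within 1.5 times of their value, as did a pseudocount of 0.1, leaving out repeated symbols and subtracting the trend on length and GC content. The FPKM minimum set the counts. With no minimum, 1247 genes were 2-fold higher and 1354 lower, and 1908 and 2127 passed 1.5-fold. With 5 FPKM the same counts were 24 and 74, and 55 and 158. With 1 FPKM in both libraries they were 33 and 105, and 131 genes were 1.5-fold higher. A pseudocount of 1 gave 41 and 72, and 96 and 234.

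No list past 1.5-fold changed direction, and 437 of 471 recomputed list medians stayed on their side of 1.5-fold and within 0.2. Column sums made equal moved urothelium to -0.605 and cornified epithelium to -0.61, past 1.5-fold, and erythroid to 0.501 and ducts to 0.493, within it. The 75th percentile gave 0.581 for erythroid and 0.572 for ducts, and the length and GC trend 0.542 for erythroid. With 5 FPKM the medians were -0.632 (myogenic regulators), -0.699 (muscle energy metabolism), 0.00617 (T-box), -0.228 (cornified epithelium), 2.77 (neutrophil), 1.497 (hepatocyte) and 0.483 (ducts). With 1 FPKM in both they were -0.699 (muscle energy metabolism), 1.70 (neutrophil), 1.78 (stefins), 1.07 (hepatocyte) and -0.127 (gonad). A pseudocount of 0.1 gave 1.81 (neutrophil), 1.83 (stefins) and 2.17 (hepatocyte). A pseudocount of 1, which pulls low genes towards 0, gave -0.686 (myogenic regulators), -0.765 (Z disc), -0.781 (excitation-contraction coupling), -0.761 (neuromuscular junction), -0.655 (muscle energy metabolism), -0.838 (all skeletal lists), 1.29 (neutrophil), 1.27 (stefins), 0.439 (mast cell), 0.987 (hepatocyte), 0.557 (erythroid) and 0.526 (ducts). The cause of the other moves was not tested. Of 188 named genes that passed, none past 1.5-fold changed direction. With a pseudocount of 1, 13 of the 114 past 1.5-fold fell within it and 59 of the 188 moved past it or by more than 0.2, such as *Apoh* to 0.90, *Camp* to 2.12 and *Lbx1* to -0.68, and the hepatocyte median lay under those of the neutrophil and stefin lists with this pseudocount and with 1 FPKM in both. With column sums made equal 14 crossed 1.5-fold, among them *Hoxb8* (0.53), *Hoxc10* (-0.63), *Krt15* (-0.68) and *Krt5* (-0.66). Leaving out a replicate was not possible, and no paired analysis was possible because each group is 1 library.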
